A study of Caenorhabditis elegans with 4 samples.

Results

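The 1032 peaks described here are all those on chromosome III in the combined list of DVE-1 binding sites, out of 4971 peaks on 6 chromosomes. They were chosen by chromosome alone, and neither their strength nor their width played a part. The sites come from chromatin immunoprecipitation followed by sequencing (ChIP-seq), in which DNA crosslinked to a tagged protein is pulled down and sequenced, so that bound stretches appear as peaks. Late embryos of the hermaphrodite Caenorhabditis elegans strain OP398 were used for 2 ChIP replicates, precipitated with anti-GFP antibodies, and for 2 input samples that were not analysed here. All worms were grown at 20 °C and shared 1 genotype. They carried the unc-119 allele ed3, which is a mutation on III, and the transgene wgIs398, made by bombardment, which holds dve-1 with the tag TY1EGFPFLAG at its C terminus beside a functional unc-119 gene. The labels give neither the copy number nor the insertion site of the transgene and do not say that the native dve-1 gene was removed. Whole embryos were used, so the cell type behind a peak is unknown. Replicate 1 had 373 peaks on III of 1709 in all, and replicate 2 had 441 of 2109. Nothing in the labels states that the replicates were separate cultures, and the difference between them may therefore be technical. The files hold no read counts, so the depth is unknown.

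The homeodomain protein DVE-1 belongs to the SATB family, whose members bind DNA and organise chromatin. Together with UBL-5 and ATFS-1 it switches on chaperone genes when mitochondrial proteins misfold, a pathway called the mitochondrial unfolded protein response. C. elegans autosomes have a gene-rich centre in which crossovers are rare, flanked by arms in which crossovers are frequent, repeats are more common and repressive chromatin at the nuclear envelope is more abundant. The chromosomes have no single centromere. On III the left arm was taken to end at base 3722000 and the centre at base 10340000, on WormBase build WS180, and each peak was placed by its midpoint. Recombination was not measured here. No annotation or genome of that build was used, so peaks are named by 1-based coordinates, without genes or sequences, and the position of unc-119 relative to the peaks was not examined.

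In the combined list DVE-1 peaks were spread over all 3 domains of III at nearly the same density. The centre held 499 combined peaks in 6.62 Mb, or 75.4 per Mb (95% exact Poisson interval 68.9 to 82.3). The left arm held 262 peaks in 3.72 Mb, or 70.4 per Mb (62.1 to 79.5), and the right arm 271 peaks in 3.43 Mb, or 79.1 per Mb (69.9 to 89.1). The centre thus took 48.4% of the peaks on 48.1% of the span. Its density was 1.01 times that of the arms (95% interval 0.893 to 1.14), and the difference did not pass the 2-sided exact binomial test (adjusted p = 0.876 over 3 density tests). In the replicate lists the ratio lay on the other side of even, at 0.876 (0.710 to 1.08) in replicate 1 and 0.880 (0.726 to 1.07) in replicate 2, and neither passed the test (exact binomial, adjusted p = 0.321 and 0.198). The left arm had 0.890 times the density of the right arm (0.748 to 1.06; exact binomial, adjusted p = 0.290), with ratios of 0.957 in replicate 1 and 0.787 in replicate 2, of which neither passed (exact binomial, adjusted p = 0.780 and 0.0944). By domain the densities in the centre, left arm and right arm were 25.2, 28.2 and 29.5 per Mb in replicate 1. In replicate 2 they were 29.9, 30.1 and 38.2 per Mb, less even than in the combined list. The binomial tests treat peaks as independent, although neighbouring peaks were often close together.

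**Figure D1:**
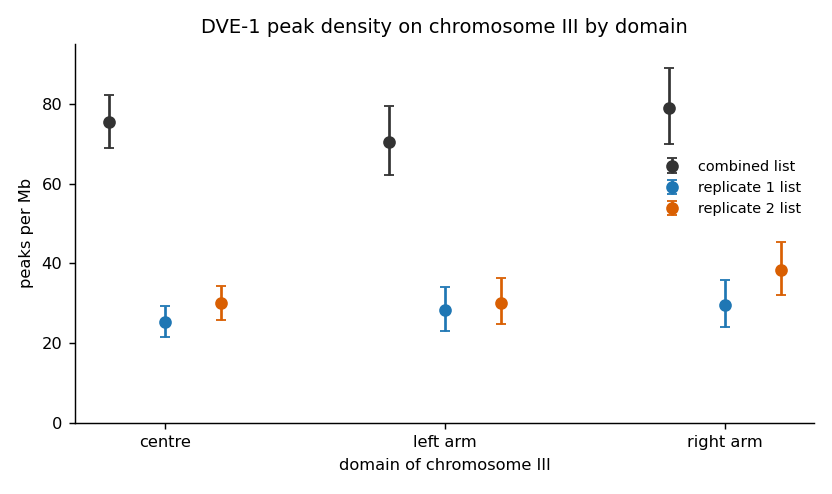
Peaks per Mb (vertical axis) in the centre, left arm and right arm of chromosome III for the combined, replicate 1 and replicate 2 lists; bars are 95% exact Poisson intervals, which cover counting error only. The combined values lie between 70.4 and 79.1 per Mb, and within each list the intervals of the 3 domains overlap.

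Over its whole length III was denser than the other autosomes. It had 75.0 combined peaks per Mb, against 50.7 per Mb over the other 4 autosomes, a ratio of 1.48 (95% interval 1.38 to 1.59; exact binomial, adjusted p = 5.24e-26). The ratio was 1.52 (adjusted p = 2.41e-11, exact binomial) in replicate 1 and 1.47 (adjusted p = 1.43e-11, exact binomial) in replicate 2. These tests and intervals again treat peaks as independent. They do not measure the spread among the other autosomes, which ran from 43.7 per Mb on V to 60.7 per Mb on II in the combined list. In the replicate lists II came closer to III. It had 25.1 per Mb against 27.1 on III in replicate 1, and 29.2 against 32.0 in replicate 2. The difference between III and II was not tested. In the combined list each of the 3 domains of III was denser than any other autosome as a whole, of which II was the densest. To set the evenness of III beside the other autosomes, each was divided at the same fractions of its span, 27.0% and 75.1%. Middle-to-end ratios were then 1.03 on I, 1.10 on II, 0.954 on IV and 1.20 on V, against 1.01 on III; whether III differs from them was not tested, and these fractions are not the recombination boundaries of the other chromosomes.

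Density nonetheless varied within the domains. Among intervals of 1 Mb, the interval III:3000001-4000000, which contains the left boundary, held the most combined peaks, with 97, and III:2000001-3000000 next to it the fewest of the full intervals, with 63. The excess in it lay among weakly supported peaks. Of its 97 peaks 18 (18.6%) were in both replicates, against 20 of 63 (31.7%) in its left neighbour. It held 34 peaks of replicate 1 and 29 of replicate 2, against 26 and 33 in that neighbour. The last 0.767 Mb of III was also dense, with 73 peaks or 95.1 per Mb. The 500 kb on the centre side of the left boundary held 47 combined peaks and the 500 kb on its arm side 57, against 18 and 18 in replicate 1 and 22 and 15 in replicate 2, which did not show that order. At the right boundary there were 30 on the centre side and 40 on the arm side, and there the replicates showed the same order, with 6 and 14 peaks in replicate 1 and 11 and 24 in replicate 2. No peak lay across either boundary. The last peak before the left boundary was III:3719625-3719824 and the first after it III:3735084-3735340; at the right boundary they were III:10338903-10339706 and III:10379611-10379833.

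**Figure D2:**
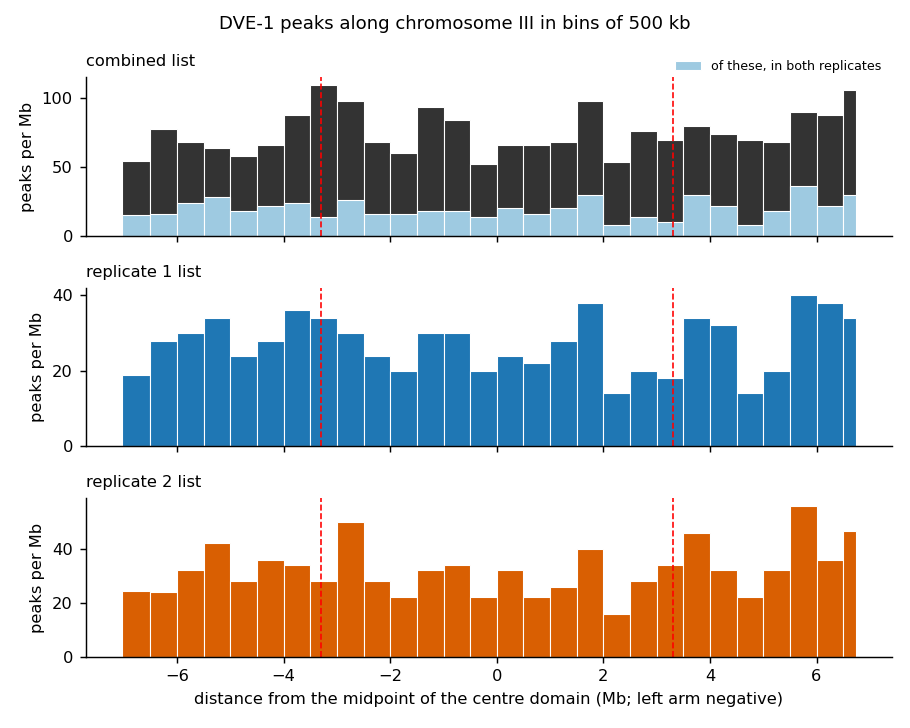
Peaks per Mb along chromosome III in bins of 500 kb (the outermost bins differ in length), by distance from the midpoint of the centre domain, in the 3 lists; dashed lines mark the domain boundaries and light bars the combined peaks found in both replicates. The combined list reaches 110 per Mb in the bin that contains the left boundary, in which the replicate lists have 34 and 28 per Mb, and has its lowest value, 52 per Mb, near the middle of the centre.

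The best-ranked sites were found in all domains. Of the 10 combined peaks on III with the smallest q-values, 4 lay in the centre, 3 in the left arm and 3 in the right arm, and all 10 were in both replicates. Here a q-value is the authors' peak score, which ranks peaks within a list and has no common depth between lists. The best was III:833034-836434 in the left arm, rank 12 of the whole combined list, with q-values of 5.56e-81 in the combined list and, for its better piece, 1.22e-18 in replicate 1 and 4.60e-25 in replicate 2. It was also the widest peak on III, at 3401 bp, and both replicates listed it as 2 pieces. These were III:833619-834022 and III:835566-836251 in replicate 1, and III:833612-834125 and III:834574-836191 in replicate 2. Its rank on III was 10 in replicate 1 and 13 in replicate 2.

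In the right arm the best peak was III:10988585-10990013, 1429 bp wide, with q-values of 6.55e-59 in the combined list, 1.25e-23 in replicate 1 and 6.67e-38 in replicate 2. Its nearest neighbours lay 13302 bp to the left and 17642 bp to the right, both between the quartiles of gaps on III (2058 and 17962 bp). In the centre the best was III:8801365-8802543, 1179 bp wide, with q-values of 7.43e-58, 2.49e-27 and 2.11e-39 in the same order of lists, and it was second on III in both replicates. It had a strong neighbour. Only 337 bp to its left lay III:8799719-8801027, which ranked 8 on III with q-values of 2.64e-51, 9.62e-24 and 2.49e-27 and was 1309 bp wide. The same 2 peaks were listed separately in each replicate, so the division between them was not a feature of the combined list alone.

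The replicates each put another centre peak first on III. In replicate 1 it was the peak III:3867329-3867806, which is III:3867133-3868077 in the combined list and has q-values of 1.09e-52 in the combined list, 3.13e-29 in replicate 1 and 7.69e-31 in replicate 2. In replicate 2 it was III:8416896-8418012, which is III:8416881-8417967 in the combined list and has q-values of 1.27e-57 in the combined list, 9.30e-23 in replicate 1 and 2.12e-41 in replicate 2. The site first in replicate 1 was ranked 6 on III in replicate 2, and the site first in replicate 2 was ranked 5 in replicate 1. The remaining sites among the 10 best were III:12131494-12132348 and III:12612293-12613742 in the right arm and III:1714027-1714655 and III:1923435-1925893 in the left arm. Of these, III:1714027-1714655 was the narrowest of the 10, at 629 bp. Of the 10 best III peaks of replicate 1, 6 overlapped one of the 10 best of replicate 2, and of the 100 best, 69 overlapped one of the 100 best.

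**Figure D3:**
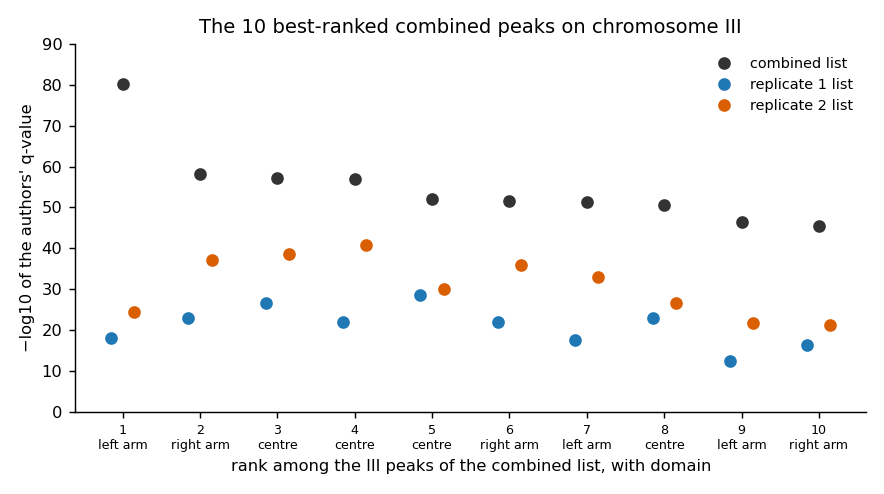
Negative log10 of the authors' q-value for the 10 best combined peaks on III (horizontal axis: their rank on III, with the domain), in the combined list and for the better overlapping peak in each replicate; the lists have no common depth. Combined values run from 45.5 to 80.3, and each of the 10 peaks has a value in both replicates.

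III had a similar share of the strong and of the weak sites. It held 19 of the 100 best combined peaks (19.0%, 95% Clopper-Pearson interval 11.8 to 28.1), 55 of the 250 best (22.0%, 17.0 to 27.7), 106 of the 500 best (21.2%) and 208 of the 1000 best (20.8%, 18.3 to 23.4), against 20.8% of the entire list. Put the other way, 1.84% of the III peaks were among the 100 best, 5.33% among the 250 best, 10.3% among the 500 best and 20.2% among the 1000 best, where these classes make up 2.01%, 5.03%, 10.1% and 20.1% of all combined peaks. In the replicate lists its share of the 100 best was 21.0% in replicate 1 and 22.0% in replicate 2. Of the centre peaks 90 of 499 (18.0%) were among the 1000 best, and of the arm peaks 118 of 533 (22.1%). Among the 100 best there were 6 centre and 13 arm peaks in the combined list, 8 and 13 in replicate 1, and 8 and 14 in replicate 2. These shares carry no test.

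Peaks on III were narrow, with widths as the caller gave them. On III the combined peaks had a median width of 284.5 bp, with quartiles at 203 and 409 bp. The median of replicate 1 was 292 bp, with quartiles at 225 and 378 bp, and that of replicate 2 was 340 bp, with quartiles at 263 and 481 bp. In the combined list the other chromosomes had medians of 328 bp on I, 311 bp on II, 322 bp on IV, 313 bp on V and 401 bp on X. III was thus the chromosome with the narrowest median in that list, and also in replicate 1, whereas in replicate 2 chromosome II was narrower, at 335 bp. Despite the short peaks, 2.58% of the III span was covered, against 1.69% to 2.30% of the other autosomes. By domain the combined medians were 274 bp in the centre, 280 bp in the left arm and 302 bp in the right arm. The centre median minus the arm median was −17 bp for combined peaks, −2 bp for replicate 1 and 1.5 bp for replicate 2, with no common sign. Combined peaks of 800 bp or more numbered 46, of which 18 lay in the centre, 14 in the left arm and 14 in the right arm. They were 4.46% of the III peaks, against 5.50% to 6.59% on the other autosomes and 13.4% on X. In the replicates II had a smaller share than III, at 1.56% against 3.49% in replicate 1 and 5.61% against 5.90% in replicate 2.

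Of the 5 widest peaks 4 lay in the arms. After III:833034-836434 came III:1923435-1925893 in the left arm, at 2459 bp, and then III:12614078-12616449 at 2372 bp and III:13070199-13071937 at 1739 bp in the right arm. The widest in the centre was III:6147181-6148786, at 1606 bp. The peak III:12614078-12616449 went against the rest. It ranked 422 in the combined list with a q-value of 1.04e-18, but replicate 1 had no peak there and replicate 2 had 2 pieces at ranks 1824 and 1977. It began 335 bp after the high-ranked III:12612293-12613742 and ended 334 bp before III:12616784-12617303, rank 604.

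At the other extreme, 28 combined peaks on III (2.71%) were under 50 bp wide and 9 were 10 bp or less. On the other chromosomes the share under 50 bp ran from 0.441% on X to 2.59% on II, so such peaks were not particular to III. Peaks of 1 bp were listed at III:3759136 and III:4537948. The peaks under 50 bp ranked from 3166 down. Of the 28, 26 were in neither replicate and 0 in both, and each replicate list had 1 peak of that kind on III. How the combined list came to hold such peaks is not known from the labels or headers. The share of peaks in both replicates was larger among wider peaks. Of the 67 peaks under 100 bp 0 were in both replicates, of the 524 from 200 to 399 bp 20.6% were, and of the 46 of 800 bp or more 73.9% were.

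**Figure D4:**
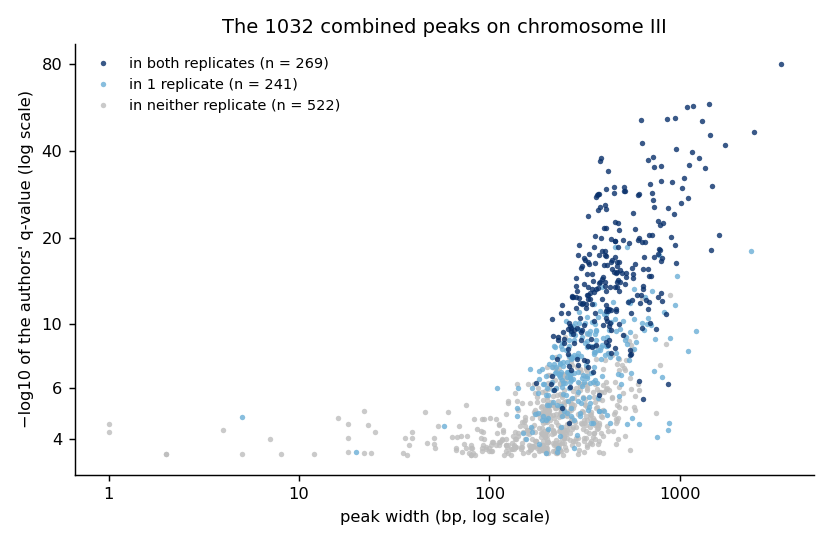
Width (bp, log scale) and negative log10 of the authors' q-value (log scale) of the 1032 combined peaks on III, by the replicates in which they were found at 1 bp overlap. Peaks in both replicates lie at the upper right and those in neither at the lower left, where 28 peaks are under 50 bp.

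About as large a part of the III peaks as of the whole list overlapped peaks of the replicate lists. The combined list comes from the same series and its making is not stated, so this overlap is not an independent check. Of the 1032 peaks 269 overlapped a peak in both replicates by at least 1 bp, which is 26.1% (95% interval 23.4 to 28.9), where the whole combined list has 25.4%. A further 87 (8.43%, list 7.54%) were in replicate 1 only, 154 (14.9%, list 15.6%) in replicate 2 only and 522 (50.6%, 47.5 to 53.7, list 51.5%) in neither. Against the other chromosomes, with 992 of 3939 peaks or 25.2% in both, the difference on III was 0.882 percentage points and did not pass the 2-sided Fisher's exact test (adjusted p = 0.574 over 2 tests). Within III, 118 of 499 centre peaks (23.6%, 20.0 to 27.6) and 151 of 533 arm peaks (28.3%, 24.5 to 32.4) were in both. This difference of −4.68 points did not pass either (Fisher's exact test, adjusted p = 0.178). Split by support, the peaks in both replicates had a centre-to-arm density ratio of 0.844 (95% interval 0.658 to 1.08), with 17.8 per Mb in the centre and 21.1 in the arms, and those in neither a ratio of 1.08 (0.906 to 1.29), with 39.4 and 36.5 per Mb. The difference between these ratios was not tested on its own.

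The rank of a peak went with its support. All 55 III peaks of ranks 1 to 250 were in both replicates, as were 47 of 51 in ranks 251 to 500 and 90 of 102 (88.2%, 80.4 to 93.8) in ranks 501 to 1000. In the last class 78.4% of the peaks of the other chromosomes were. Beyond that the share on III was 32.7% in ranks 1001 to 2000 and 5.39% in ranks 2001 to 3000, against 31.2% and 5.15% elsewhere. The III peaks in both replicates had a median width of 432 bp and those in neither 221 bp. The best-ranked peaks found in neither were III:1419456-1420340 in the left arm (rank 845), III:8984589-8985220 in the centre (rank 871) and III:13603734-13604058 in the right arm (rank 1344). The first of these lay 330 bp from III:1418752-1419125, rank 755, which was in both replicates. The best peak in 1 replicate only was III:4237614-4238068, at rank 401 in the combined list and 262 in replicate 2; it was named after its values were seen.

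**Figure D5:**
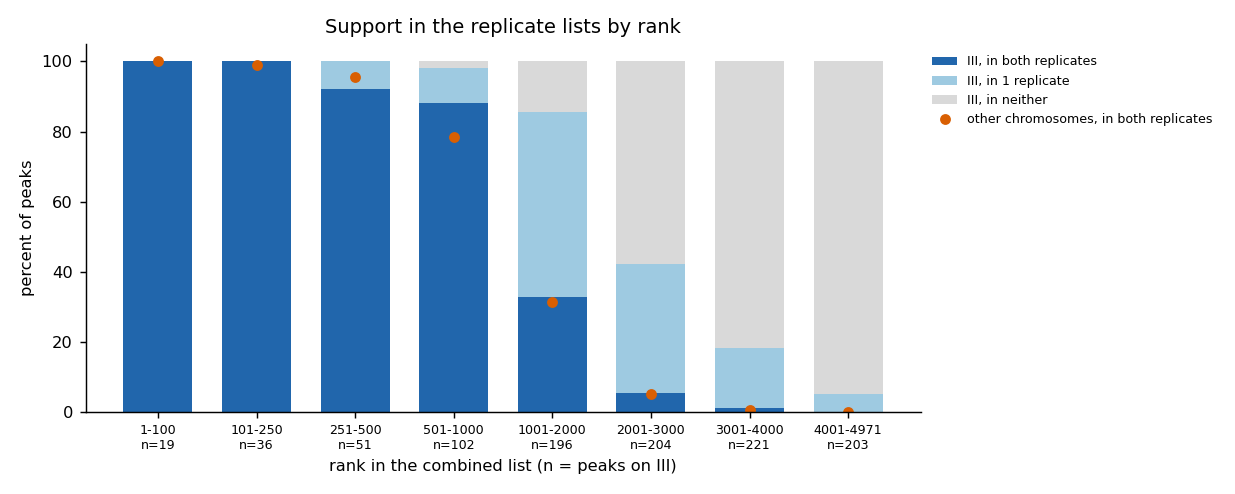
Percent of the III peaks found in both replicates, in 1 or in neither, by rank in the combined list (stacked bars, with the number of III peaks), and the percent of peaks of the other chromosomes found in both (points). Both the bars of III and the points run from 100% in both replicates in ranks 1 to 100 to 0% beyond rank 4000.

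The replicate lists overlapped on III about as much as over all chromosomes. Of the 373 III peaks of replicate 1, 275 (73.7%, 68.9 to 78.1) overlapped a peak of replicate 2, where the whole list has 75.3%. Of the 441 of replicate 2, 272 (61.7%, 57.0 to 66.2) overlapped a peak of replicate 1, where the whole list has 60.6%. By domain the share of replicate 1 was 71.3% in the centre, 73.3% in the left arm and 78.2% in the right arm, and that of replicate 2 59.6%, 67.0% and 60.3%. Where a combined peak matched exactly 1 peak in each replicate, which was so for 261 of 269, the midpoints in the replicates lay a median of 30 bp apart, and within 100 bp in 225 (86.2%). Across these 261 sites, which are not independent replicates, the negative log10 of q correlated between replicates with Spearman's rho at 0.634 and Pearson's r at 0.797. The distances and correlations cover only sites listed in both replicates. Overlap with the same combined peak also limits how far apart the midpoints can lie. The combined peak was wider than both of its replicate peaks at 197 of the 261 sites.

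Few replicate peaks on III were missing from the combined list, namely 10 of 373 in replicate 1 (2.68%, whole list 2.75%) and 13 of 441 in replicate 2 (2.95%, whole list 2.47%). The best of them were III:1219083-1219333, III:3112047-3112211 and III:8956060-8956369 in replicate 1, at ranks 690, 976 and 1169, and III:2681083-2681744, III:635625-635934 and III:1281144-1281354 in replicate 2, at ranks 1641 to 1655. None of these 6 was in the other replicate.

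The densest windows of the combined list differed in how much of them the replicates held. Each of the 138 windows of 100 kb along III held at least 1 combined peak, with a median of 7 and quartiles of 5 and 9.75. In each replicate list the median was 3, and 10 windows were empty in replicate 1 and 8 in replicate 2. The last window, from III:13700001 on, is cut short where the span ends at 13767328 and held 13 combined peaks. The windows are ordered here by count alone. The most peaks lay in III:4500001-4600000, with 16 combined peaks, 1 peak of replicate 1 and 4 of replicate 2. It was followed by 3 windows of 15, at III:3700001-3800000 on the left boundary, III:4400001-4500000 and III:5900001-6000000. Of the peaks in these 4 windows, 0 of 16, 1 of 15, 4 of 15 and 0 of 15 were in both replicates. The next place was shared by 4 windows of 14 peaks, III:3800001-3900000, III:6100001-6200000 and III:8800001-8900000 in the centre and III:13000001-13100000 in the right arm, of which 4, 2, 4 and 6 peaks were in both replicates. The last of these held the most peaks of replicate 1, with 8. In replicate 2 the most, 10, lay in III:12600001-12700000, also in the right arm, where the combined list had 12. In the densest windows of the replicates, or across their edges, lie the longest chains of combined peaks with gaps of at most 5000 bp. One runs over III:13056133-13074028, with 10 peaks in 17896 bp, of which 5 were in both replicates and the best ranked 70. The other runs over III:12595639-12617303, with 9 peaks in 21665 bp, of which 4 were in both, and holds the wide peak found in replicate 2 only. The chains and the densest windows of the replicates were named after their values were seen.

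Neighbouring combined peaks on III were a median of 7262 bp apart (quartiles 2058 and 17962), and the gap never fell under 200 bp. That floor was not particular to III, since the smallest combined gap on each other chromosome was 201 to 208 bp. In the combined list the medians were alike in the domains, at 7025 bp in the centre, 6975 bp in the left arm and 7783 bp in the right arm. Gaps of at most 5000 bp made up 42.3%, 42.9% and 42.1% in the same order. On the other autosomes the median gap ran from 8208 to 11386 bp in the combined list. In the replicate lists the III medians were 22653 bp in replicate 1 and 18991 bp in replicate 2. Those of the other autosomes ran from 27273 to 38735 bp in replicate 1 and from 17367 to 30597 bp in replicate 2. The lowest in replicate 2 was that of II, which was thus more closely spaced than III there.

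Empty stretches on III were short, and the longest lay in the left arm. The longest were III:2172639-2276016, of 103378 bp, and III:1430166-1533194, of 103029 bp. They were followed by III:6710190-6805384 in the centre, of 95195 bp, and by III:675611-766361 and III:1300476-1388173 in the left arm, of 90751 and 87698 bp. The 4 in the left arm were also without a peak in either replicate list, and the one in the centre held 1 peak of replicate 1. The longest begins right after a combined peak of rank 80. On the other chromosomes the longest stretch without a combined peak ran from 201177 bp on I to 360127 bp on V. The replicate lists had longer empty stretches on III, up to 234250 bp at III:9862096-10096345 in replicate 1 and 227062 bp at III:3532375-3759436 in replicate 2. The stretch in replicate 2 held 24 combined peaks and 7 of replicate 1, and it lies across the left boundary, in the part of III with the densest 500 kb bin of the combined list.

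Peaks reached the left tip of III. The first peak began at base 1 in all 3 lists, at III:1-325 in the combined list (rank 1853), III:1-298 in replicate 1 and III:1-361 in replicate 2. The last peak was III:13766754-13767311 in the combined list (rank 1714) and was found in both replicates as well. On no other chromosome did a peak start at base 1; the nearest to it was at base 220 on V in the combined list. The tips were looked at after the data were seen, and the sequence under these peaks was not examined.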

How the data were processed

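DVE-1::GFP ChIP-seq was carried out in late embryos, with 2 ChIP replicates and 2 input samples. The deposited peak lists are 1 for each ChIP replicate and 1 combined; per the file headers the build is WormBase WS180 and per the deposited files the caller is PeakSeq. For each peak the authors give start, end and q-value; aligner, threshold, use of input and the making of the combined list are not stated there. Low depth or joining of close peaks upstream could change counts and widths.

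Peaks on III were taken from each list, ranked by q-value over all chromosomes (ties share the best rank), and placed by midpoint. Overlap meant 1 bp, checked against bedtools 2.31.1. Chromosome spans run to the largest peak end over the lists. Densities were compared by exact binomial tests and shares by Fisher's exact test, 2-sided, with Benjamini-Hochberg adjustment. Of the tests, only the centre-to-arm density test was tried on simulated data. The simulated peaks were placed independently of each other, so the trial does not cover the effect of close neighbours. Shares carry Clopper-Pearson intervals and densities exact Poisson intervals, which cover counting error only. Statistics used scipy 1.17.1, with pandas 2.3.3 and numpy 2.4.6 under Python 3.11.15, and figures matplotlib 3.10.9.

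The members, boundaries and tests were chosen with earlier results of these data known. Named sites are the 10 best, the 3 best of each domain, the 5 widest, the 5 densest windows (ties by position, those tied with the last also given), the 5 longest empty stretches, the 3 best in neither replicate and the 3 best of each replicate missing from the combined list. The only gene table at hand was for build WBcel235 and was not used, so no gene or sequence is given.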

Additional observations from a re-analysis of the deposited data

How the results depend on the processing

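A replicate was left out by using the other replicate's own list instead of the combined one. The density of III relative to the other autosomes kept its direction and its call in every alternative run. The centre-to-arm ratio passed its test in none, but turned from 1.01 to between 0.876 and 0.880 when a replicate was left out, to 0.941 in the better-ranked 50% of the list, 0.844 with only peaks in both replicates, 0.963 with peaks within 1000 bp counted once and 0.955 with the boundaries moved inwards by 250 kb. The centre-minus-arm difference in support turned from −4.68 to 1.45 points in the better-ranked 50% of each list. A 50% reciprocal overlap, the stricter rule by construction, gave 21.9% of III peaks in both replicates, 64.6% of replicate 1 in replicate 2 and 54.6% of replicate 2 in replicate 1; in the better-ranked 50%, 46.0% were in neither. The median width was 292 to 340 bp with a replicate left out, 382 bp in the better-ranked 50% and 432 bp for peaks in both, and its centre-minus-arm difference −2 to 1.5 bp and 46 bp for peaks in both. Leaving out a replicate gave 8 to 10 peaks in the densest window and 227062 to 234250 bp as the longest empty stretch. For the other changes the cause was not tested. Leaving out peaks under 50 bp, chosen after seeing the data, changed no call. No paired analysis was possible because only ChIP samples have peak lists here and input values were not analysed, so that no groups of samples are compared.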
